A study of Mus musculus with 9 samples.

Results

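Potassium channel genes were examined in spinal motoneurons of mice after spinal cord injury and electrical stimulation. The genes were taken by symbol, as those starting with Kcn, a family letter and a number, or with Kcnab, Kcnip or Kcnmb and a number. The rule found 97 of the 55401 genes in the deposited table, without use of any measured value. Of these, 92 are protein coding and 5 are noncoding antisense or host transcripts (Kcnab3os, Kcnd3os, Kcnmb4os1, Kcnmb4os2 and Kcnq1ot1), which were counted apart. The coding genes comprise 40 pore subunits of voltage-gated channels, 12 accessory subunits of those channels, 15 inward rectifiers (Kcnj) and 14 two-pore channels (Kcnk). Another 7 (Kcnn, Kcnt and Kcnu) are pore subunits classed here as calcium-activated, by symbol and not by what opens each channel. The last 4 are accessory subunits of the large-conductance calcium-activated channel (Kcnmb). Kcnma1, the pore of that last channel, does not match the rule and was read with a list of partner genes.

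All mice were wild type (WT in the labels) and tissue was taken 4 weeks after the injury. The sham group carries the treatment label None, the untrained group had a spinal cord injury, and the SBES group had the injury followed by synergistic bidirectional electrical stimulation. Each group has 3 libraries. Stimulation was at 10, 15 and 20 Hz in SBES libraries 1, 2 and 3, so frequency and library cannot be told apart within that group. Motoneurons labelled with TRDA were drawn from cord slices through glass electrodes and profiled by Smart-seq2, which amplifies whole transcripts from very little RNA. The sample titles call each library scRNAseq. The labels name 3 mice per group, but which mouse and how many neurons gave each library is not stated. A p-value here reflects only how libraries vary, which may be technical. Columns headed NT were taken as untrained, and the column CLES1 as SBES at 10 Hz, by letters, number and elimination.

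Potassium channels let potassium leave the cell and so set the resting potential, end each action potential and limit firing rate. A voltage-gated channel is built from a ring of pore subunits and opens on depolarization, and accessory Kvβ, KChIP and KCNE proteins change its gating or its delivery to the membrane. Inward rectifiers hold the membrane near rest and, in glia, take up potassium. Two-pore channels carry background leak current, and small-conductance calcium-activated channels give motoneurons their long afterhyperpolarization. In every pore subunit a short loop, whose core is usually glycine, tyrosine (or phenylalanine) and glycine, forms the filter that selects potassium.

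Codons that spell this core were found in each pore subunit of the gene set and in no accessory subunit. They are shown here for some of the genes on which the results turn. The longest whole coding sequence of each gene in GENCODE M21 (GRCm38, the assembly called mm10) was searched in frame for GGNTACGGN, GGNTATGGN, GGNTTCGGN and GGNTTTGGN, which are codons for glycine, tyrosine or phenylalanine, and glycine. Each sequence below is 30 bases of the coding strand, 5′ to 3′, with the 3 matching codons in capitals.
Kcna1: atgaccactgtgGGATACGGTgacatgtac
Kcnc1: atgacgacactgGGCTATGGAgacatgtat
Kcng4: atgacgaccgtgGGCTATGGGgacatggtc
Kcnk1: ctctccaccacaGGCTATGGCcacacggtg
Kcnk12, first pore: gtgtcgaccataGGTTTCGGCatgacaaca
Kcnk12, second pore: ttcagcaccatcGGCTTCGGGgacctggtg
Kcnk13, first pore: gtttctaccataGGGTTTGGGatgacaaca
The Kcnc1 stretch lies in exon 2 at chr7:46427967-46427996 on the plus strand. The Kcna1 stretch is in exon 2 at chr6:126642219-126642248 on the minus strand, and that of Kcng4 in exon 3 at chr8:119625901-119625930 on the minus strand. The second stretch of Kcnk12 is at chr17:87746444-87746473 on the minus strand (exon 2). The first stretches of Kcnk12 and Kcnk13, and that of Kcnk1, cross an exon junction. Kcnk12 carries phenylalanine codons in both pores and Kcnk13 in the one shown, whereas the other genes shown carry a tyrosine codon.

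A match was found in 76 of 76 pore subunits and 0 of 16 accessory subunits. Over all protein-coding genes with a whole coding sequence, 2893 of 21584 (13.4%) had one. The tyrosine form was present in 61 of the 76 pore subunits (80.3%) against 6.1% of all coding genes. The search took a match anywhere in frame and did not ask whether it lies in the pore loop. Kcnj12, for example, has 2 matches, at codons 132 and 247. A match describes letters in the reference and not a function.

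Levels are given as TMM-scaled FPKM, meaning counts scaled by exonic length in kilobases and by the library's TMM-adjusted total, as FPKM is, so that genes of unequal length can be set beside each other. Even read coverage along transcripts is assumed in that comparison and was not tested. Libraries held 11821145 to 17675948 counts. Chat, the enzyme of acetylcholine synthesis that defines motoneurons, was present in each library. Summed markers of oligodendrocytes (4989 to 14090) nevertheless exceeded those of motoneurons (57.3 to 193) in each library, so a channel level here is not that of motoneurons alone. Summed Schwann cell markers were near 0. Libraries numbered 1 stood apart: sham 1 and untrained 1 had Malat1 at 15128 and 16069 CPM against 514 to 4774 elsewhere, and mitochondrial genes took 18.6% of SBES 1 against 2.47% to 7.36% elsewhere. In libraries that hold markers of several cell types, fewer cells of a type and less RNA per cell cannot be told apart.

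The motoneuron libraries held a broad but unequal set of channels. Of the 92 coding genes, 39 averaged at least 1 TMM-scaled FPKM over the 9 libraries, 17 at least 5 and 9 at least 10. A filter on low counts left 72 for testing. The 20 that were not tested did not exceed a level of 0.260 in any library, and 5 of them (Kcna7, Kcnj1, Kcnj4, Kcnk18 and Kcnv2) had no count anywhere. Kcnj13, a rectifier of epithelia and retinal pigment cells, was among the 20. Of the summed level of all pore subunits, voltage-gated genes made up 37.2% to 47.4% per library, two-pore genes 28.2% to 42.1%, inward rectifiers 13.6% to 20.9% and calcium-activated genes 3.27% to 4.78%.

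**Figure D1:**
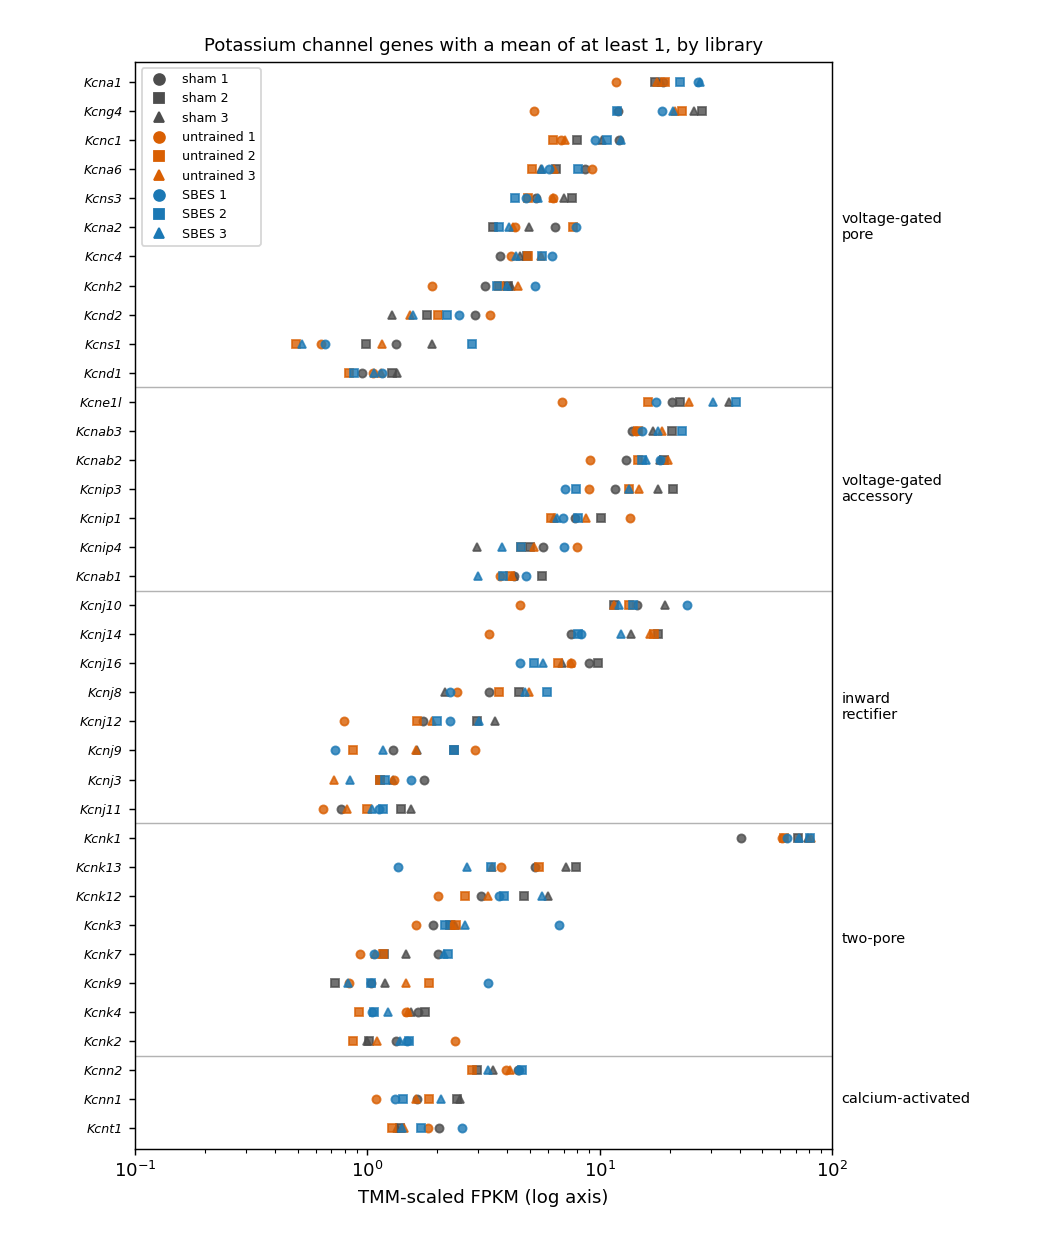
Level of potassium channel genes with a mean of at least 1, in each library, on a log axis of TMM-scaled FPKM, grouped by family; colour marks the group and symbol the library number. Kcnk1 stands above all other genes shown in each library.

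Among voltage-gated pore subunits Kcna1 and Kcng4 had the largest levels, with means of 19.8 and 18.4 over the 9 libraries. Kcng4 was the higher of the pair in the sham and untrained means and Kcna1 in the SBES mean. Kcna1 encodes Kv1.1, which opens at low voltage near axon initial segments and nodes. Sham libraries 1, 2 and 3 had Kcna1 levels of 18.7, 17.2 and 18.3, followed by 11.8, 19.0 and 17.7 for untrained and 26.5, 22.2 and 27.1 for SBES libraries. The 3 SBES libraries were therefore the 3 highest of the 9. Kcna6 (Kv1.6) ran from 5.11 to 9.26 and Kcna2 (Kv1.2, the usual partner of Kv1.1 at the juxtaparanode) from 3.47 to 7.88, with overlapping groups in both cases. Kcna3 (Kv1.3, also a channel of lymphocytes and microglia) ranged between 0.258 and 1.83, and its highest library was sham 1. On chromosome 6 Kcna1 lies between Kcna5 and Kcna6, at distances of 105.0 and 61.9 kb. Its mean of 19.8 stood beside 0.200 for Kcna5 and 6.80 for Kcna6.

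Kv3 channels, encoded by the Kcnc genes, close fast and allow high firing rates. Kcnc1 (Kv3.1) measured 12.1, 7.97 and 10.2 in sham, 6.80, 6.32 and 7.07 in untrained, and 9.56, 10.7 and 12.3 in SBES libraries. Untrained libraries were the 3 lowest. Kcnc4 (Kv3.4) varied little, from 3.71 to 6.26, and its coefficient of variation (SD over mean of the 9 libraries) was 16.5%.

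Silent subunits do not form channels alone and join other pore subunits to change their gating. Kcng4 (Kv6.4) measured 12.04, 27.6 and 25.5 in sham, 5.24, 22.6 and 21.1 in untrained, and 18.5, 11.9 and 20.8 in SBES libraries. Kcns3 (Kv9.3) ran from 4.31 to 7.61 and Kcns1 (Kv9.1) from 0.492 to 2.81, the latter with the largest coefficient of variation of the 39 genes (65.9%).

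Subunits of the A-type, ether-a-go-go and Kcnq channels were at low to middle levels. Kcnd2 (Kv4.2) ran from 1.28 to 3.38, Kcnd1 (Kv4.1) from 0.831 to 1.34 with the smallest coefficient of variation (15.9%), and Kcnd3 (Kv4.3) from 0.138 to 0.476. Kcnh2 (Kv11.1, or ERG1) lay between 1.89 and 5.26, and Kcnh1 and Kcnh6 stayed below 1 in each library. Kcnq3 (Kv7.3, an M-current subunit) was between 0.164 and 0.348.

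Accessory subunits of voltage-gated channels were among the most abundant genes of the set. Kcne1l, an X-linked KCNE-type beta subunit, measured 20.5, 22.1 and 35.9 in sham, 6.89, 16.2 and 24.2 in untrained, and 17.5, 38.6 and 30.7 in SBES libraries. These groups overlapped, and untrained 1 was far below the rest. The Kvβ genes Kcnab3, Kcnab2 and Kcnab1, whose proteins bind Kv1 channels, ran from 13.8 to 22.6, from 9.11 to 19.7 and from 3.00 to 5.62. Kcnip3 (KChIP3, also the transcriptional repressor DREAM) measured 11.6, 20.7 and 17.8 in sham, 8.97, 13.4 and 14.7 in untrained, and 7.12, 7.93 and 13.3 in SBES libraries. Kcnip1 ran from 6.18 to 13.5 and Kcnip4 from 2.97 to 7.95, each highest in untrained 1. KChIP proteins bind Kv4 channels, and the summed Kcnip level (21.3 to 36.7 per library) was above the summed Kcnd level (2.81 to 4.86) in each library. Kcnab3, Kcnd3, Kcnmb4 and Kcnq1 are overlapped by antisense genes, and Kcnip1 by Kcnmb1. The strand setting of the counting is not given. Whether reads in these overlaps were given to the right gene, to the other gene or dropped is therefore not known.

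Inward rectifiers comprised glial and neuronal genes. Kcnj10 (Kir4.1, the potassium-uptake channel of astrocytes and oligodendrocytes) measured 14.5, 11.5 and 19.1 in sham, 4.55, 13.4 and 11.5 in untrained, and 23.6, 13.9 and 12.1 in SBES libraries. Its partner Kcnj16 (Kir5.1) measured 9.01, 9.87 and 6.86 in sham, 7.50, 6.62 and 7.54 in untrained, and 4.55, 5.21 and 5.69 in SBES libraries. Kcnj16 was thus lower in the 3 SBES libraries than in all 6 others, whereas Kcnj10 groups overlapped. Kcnj14 (Kir2.4, described in motoneurons) measured 7.53, 17.8 and 13.6 in sham, 3.33, 17.2 and 16.4 in untrained, and 8.31, 8.05 and 12.3 in SBES libraries. Both members that form ATP-sensitive channels were present: Kcnj8 (Kir6.1) ran from 2.16 to 5.92 and Kcnj11 (Kir6.2) from 0.646 to 1.54. Kcnj12 (Kir2.2) measured 1.74, 2.95 and 3.54 in sham, 0.792, 1.64 and 1.91 in untrained, and 2.27, 1.99 and 3.01 in SBES libraries.

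One two-pore gene outweighed its whole class. Kcnk1 (TWIK-1) measured 40.5, 71.4 and 78.8 in sham, 61.0, 62.3 and 81.2 in untrained, and 63.9, 80.0 and 71.9 in SBES libraries, with overlapping groups. It made up 69.8% to 84.4% of the summed two-pore level per library. Kcnk13 (THIK-1, known as the leak channel of microglia) measured 5.28, 7.94 and 7.14 in sham, 3.77, 5.48 and 3.42 in untrained, and 1.36, 3.40 and 2.68 in SBES libraries. Each SBES library was below each untrained and each sham library, though SBES 2 (3.40) was only just below untrained 3 (3.42). Untrained and sham overlapped. Its close relative Kcnk12 (THIK-2) measured 3.09, 4.72 and 6.02 in sham, 2.01, 2.62 and 3.30 in untrained, and 3.67, 3.86 and 5.64 in SBES libraries. Each untrained library was below each SBES library for Kcnk12, while sham 1 lay within the untrained range.

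The acid-sensitive leak channels of motoneurons were high in a single library. Kcnk3 (TASK-1) was at 6.66 in SBES 1 and between 1.61 and 2.62 in the other 8 libraries. Kcnk9 (TASK-3) was at 3.32 in SBES 1 and between 0.726 and 1.85 elsewhere. Kcnk2 (TREK-1) ran from 0.866 to 2.39, with its highest value in untrained 1. Kcnk4 (TRAAK) measured 1.66, 1.77 and 1.54 in sham, 1.46, 0.921 and 1.50 in untrained, and 1.05, 1.07 and 1.23 in SBES libraries.

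Calcium-activated and sodium-activated channels, and Kcnu1, which was classed with them by symbol, were at low levels. Kcnn2 (SK2) ran from 2.81 to 4.64, Kcnn1 (SK1) from 1.09 to 2.49 and Kcnn3 (SK3, found in slow motoneurons) from 0.246 to 0.526. Kcnn4 (SK4, a channel of blood and microglial cells) did not exceed 0.277. Kcnt1 (Slack, a sodium-activated channel) ran from 1.27 to 2.56, highest in SBES 1. Kcnu1, the sperm channel SLO3, was between 0.694 and 1.22. The accessory genes Kcnmb2 and Kcnmb4 ran from 0.569 to 1.86 and from 0.650 to 1.26, beside 0.646 to 1.83 for the pore gene Kcnma1.

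Kcng4, Kcnj14 and Kcne1l were lowest in the library where motoneuron markers were lowest, untrained 1. That library was low more widely. It held the lowest value for 14 of the 39 genes with a mean of at least 1, glial Kcnj10 among them. Its summed pan-neuronal (1666) and oligodendrocyte (4989) markers were also the lowest of all libraries. The summed level of 8 motoneuron markers was 74.3, 176 and 193 in sham, 57.3, 138 and 149 in untrained, and 162, 105 and 158 in SBES libraries. Sham 1 was the next lowest for these markers, and it was the lowest sham library for all 3 channel genes. Among SBES libraries, Kcng4 and Kcnj14 were lowest in library 2, as were the markers, but Kcne1l was highest there. The markers' part in these levels was not tested.

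**Figure D2:**
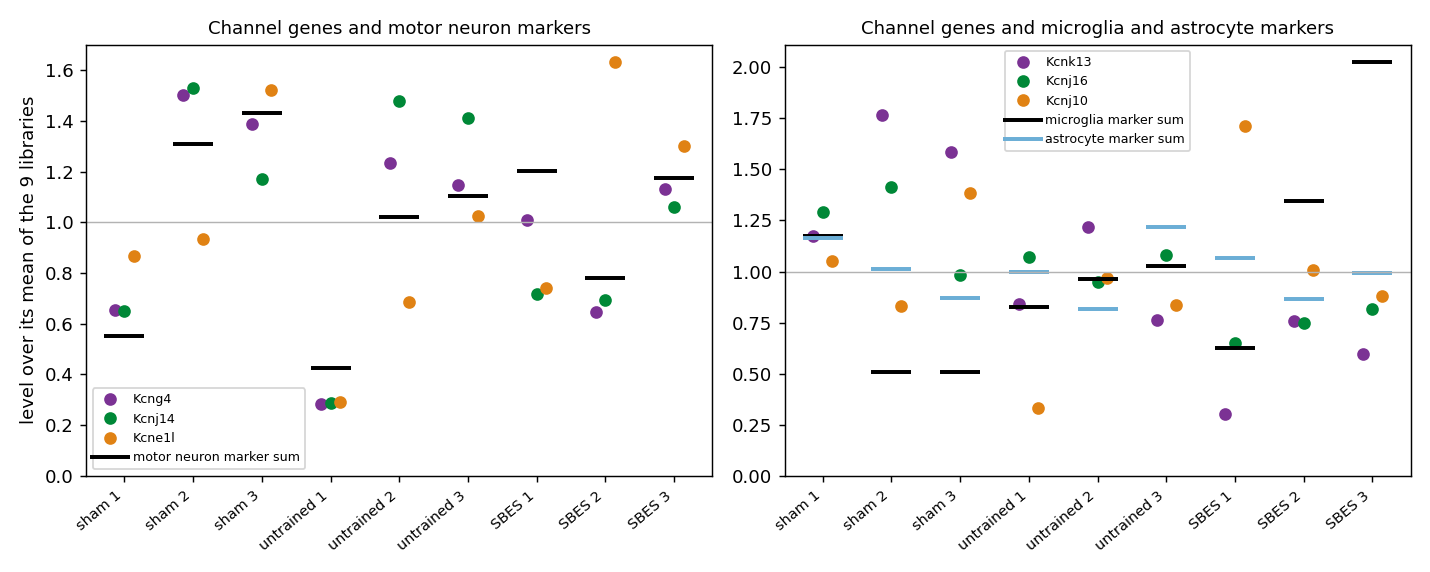
Level of each gene or summed marker list in each library, divided by its mean over the 9 libraries (linear axes from 0). At left Kcng4, Kcnj14 and Kcne1l sit near 0.3 in untrained 1, where the motoneuron marker sum is also lowest. Pan-neuronal and oligodendrocyte marker sums, not drawn, are lowest there too. At right Kcnk13 and Kcnj16 are low in the SBES libraries. The microglia marker sum is highest in SBES 3, where C1qa is its largest part.

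The first comparison asked what the injury changed, as untrained against sham. No potassium channel gene passed the test. By edgeR 0 of 72 were called at an adjusted p under 0.05, beside 0.0% of the 15893 genes tested in either direction. DESeq2 called 0 of the 72 as well, beside 18 of all genes tested. The smallest adjusted p among the channel genes was 1.0. At an unadjusted p under 0.05, 4 channel genes were lower (Kcnc1, Kcnj12, Kcnk12 and Kcnk5) and 0 were higher. They are 5.56% of the 72. Of all genes tested, 2.27% were lower and 2.18% higher at that p. With total-count scaling 0 channel genes reached that p, as was the case without sham 3, and the genes tested split into 604 higher and 108 lower (347 and 360 with TMM). The groups did not overlap for 8 channel genes, all lower in untrained libraries, among them Kcnab1, Kcnc1, Kcnh1, Kcnk4, Kcnk5, Kcnk7 and Kcnmb1. Among all genes tested, 5.13% were lower and 4.62% higher without overlap. The median log2 fold change of the channel genes was -0.11 and that of all genes tested -0.01. Their signs depended on the scaling: 29 were positive and 43 negative with TMM (49.1% of all genes tested were positive), but 42 and 30 with total counts, which moved the median of all genes tested to 0.18.

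For the 6 channel genes that the naming rule takes in this comparison, the fold changes were below 0 and none was called (adjusted p = 1.0 by edgeR for each). Kcnc1 had a mean of 10.1 ± 2.05 (SD, n = 3) in sham and 6.73 ± 0.378 in untrained, a log2 fold change of -0.58 (SE 0.22) that was -0.36 with total-count scaling. Kcnk12 went from 4.61 ± 1.47 to 2.64 ± 0.645 (log2 fold change -0.81, SE 0.32). Kcnj12 went from 2.74 ± 0.918 to 1.45 ± 0.581 (log2 fold change -0.93, SE 0.38), and the value was -0.61 without untrained 1. The Kcnk13 fold change was -0.68 (SE 0.33) on the log2 scale and that of Kcnj11 -0.60 (SE 0.33). Kcne1l had a log2 fold change of -0.73 (SE 0.42), which was -0.34 without untrained 1. The markers of oligodendrocytes were lower in untrained libraries for 10 of 10 genes, those of motoneurons for 7 of 8, pan-neuronal markers for 8 of 10 and ependymal markers for 4 of 4. The 8 microglia markers were all higher in untrained libraries, as were 6 of 7 markers of endothelium and pericytes. None of these markers was called, and the part of these cells in the channel values was not tested.

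**Figure D3:**
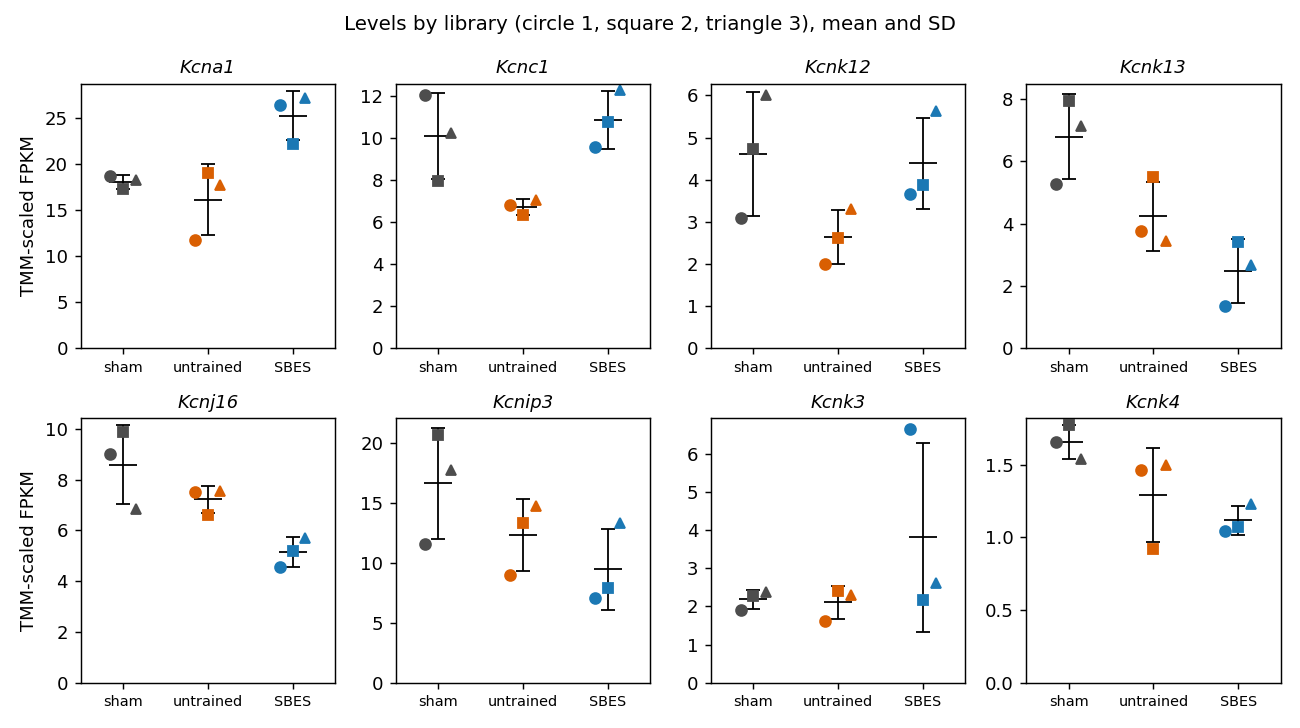
TMM-scaled FPKM of 8 of the channel genes named with a test, 1 panel per gene, with a point per library and bars for the mean and SD of each group of 3 (linear axes from 0). Kcnk13 and Kcnj16 are lowest in the SBES group, whereas Kcnc1 and Kcnk12 are lowest in the untrained group.

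The second comparison asked what stimulation changed after injury, as SBES against untrained. Again no channel gene was called by edgeR (0 of 72, beside 0.0% of all genes tested in either direction). DESeq2 called 0 of the 72, beside 30 of all genes tested. At an unadjusted p under 0.05, 5 channel genes were higher (among them Kcna1, Kcnc1, Kcnk12 and Kcnk3) and 2 lower (Kcnj16 and Kcnk13). These are 6.94% and 2.78% of the 72, against 3.7% and 1.67% of all genes tested. With total-count scaling 1 channel gene reached that p, and the genes tested split into 236 higher and 397 lower (588 and 266 with TMM). Without overlap between groups, 8 channel genes were higher (among them Kcna1, Kcna3, Kcnc1, Kcnh1, Kcnj11, Kcnj12 and Kcnk12) and 3 lower (Kcnj16, Kcnk10 and Kcnk13). The shares over all genes tested were 5.66% and 4.77%. The median log2 fold change was 0.06 for the channel genes and 0.02 for all genes tested. With TMM 39 channel genes were positive and 33 negative (51.7% of all genes tested were positive), and with total counts 26 and 46, where the median of all genes tested fell to -0.19. This comparison shares the untrained libraries with the first, so opposite signs in both are not separate evidence.

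Kcnc1 and Kcna1, of the Kv3 and Kv1 families, were among the genes with higher values after stimulation. Kcnc1 had a log2 fold change of 0.69 (SE 0.22, edgeR adjusted p = 0.810), from 6.73 ± 0.378 to 10.9 ± 1.37 (SD, n = 3). Kcna1 went from 16.2 ± 3.88 to 25.3 ± 2.69, a log2 fold change of 0.64 (SE 0.22, edgeR adjusted p = 0.897) that was 0.41 without the 3 libraries numbered 1. Kcnk12 had a log2 fold change of 0.73 (SE 0.32, edgeR adjusted p = 0.915). On the lower side, Kcnk13 had -0.76 (SE 0.33) and Kcnj16 -0.49 (SE 0.22) on the log2 scale, both with an edgeR adjusted p of 0.915, and Kcnk13 had -0.48 without SBES 1. Pan-neuronal markers were higher in SBES for 8 of 10 genes, astrocyte markers for 7 of 8, interneuron for 5 of 6 and ependymal for 4 of 4. Oligodendrocyte markers were higher for 7 of 10, but motoneuron and microglia markers for only 3 of 8 each. None of these markers was called. The summed pan-neuronal level was 1666, 1932 and 2114 in untrained and 3469, 1755 and 2270 in SBES libraries, with overlapping groups. The part of these cells in the Kcna1 and Kcnc1 values was not tested.

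**Figure D4:**
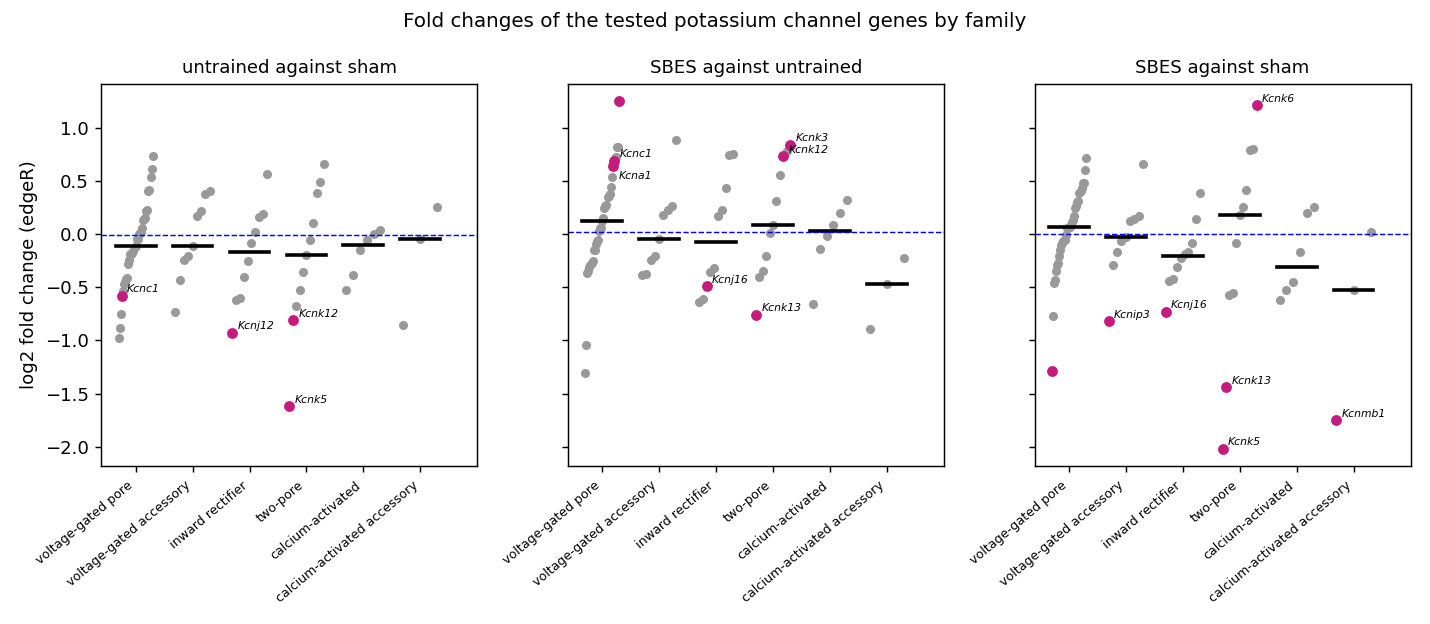
Log2 fold change (edgeR) of each of the 72 tested coding channel genes by family, 1 panel per comparison; black bars are family medians, the dashed line is the median of all genes tested, and magenta points have an unadjusted p under 0.05, most of them labelled. No point passed an adjusted p of 0.05, and Kcnk13 is at -1.44 in SBES against sham.

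The third comparison set stimulated injured animals against sham. Of the 72 channel genes 0 were called by edgeR, beside 0.271% of all genes tested called higher and 0.0755% called lower. DESeq2 called 1 of the 72, Kcnk13, beside 300 of the 15893 genes tested. At an unadjusted p under 0.05, 1 channel gene was higher (Kcnk6) and 6 were lower (among them Kcnip3, Kcnj16, Kcnk13, Kcnk5 and Kcnmb1), which are 1.39% and 8.33% of the 72 against 5.69% and 3.62% of all genes tested. Kcnk5, Kcnk6 and Kcnmb1, named here after their values were seen, rest on at most 27 counts in a library. Without overlap, 3 channel genes were higher (Kcna1, Kcnk2 and Kcnk6) and 9 lower (among them Kcng1, Kcnj16, Kcnk10, Kcnk13, Kcnk4, Kcnk5, Kcnmb1 and Kcnu1), where all genes tested gave 7.09% and 6.76%. The median log2 fold change was -0.05 for the channel genes and -0.00 for all genes tested, with 34 channel genes positive and 38 negative beside 49.8% of all genes tested positive.

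Kcnk13 had the smallest adjusted p of all channel genes. Its counts were 151, 390 and 408 in sham, 178, 307 and 177 in untrained, and 38, 153 and 135 in SBES libraries. The mean was 6.79 ± 1.37 (SD, n = 3) in sham and 2.48 ± 1.04 in SBES, a log2 fold change of -1.44 (SE 0.34, edgeR adjusted p = 0.113), and so it was not called. With the replicate number as a block it was called, at -1.49 (edgeR adjusted p = 0.0223). It was called too with DESeq2 (adjusted p = 0.00801), without the filter (edgeR, 0.00161) and without the 3 libraries numbered 1 (edgeR, 0.0209). Over all the genes each setting tested, the calls numbered 132, 300, 517 and 581 in that order, against 55 in the main fit. Over the 13 alternatives the log2 fold change ran from -1.73 to -1.14 and the adjusted p from 0.00161 to 0.432.

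Microglia markers went in both directions in the SBES libraries, where Kcnk13 was low. Their summed level was 540, 233 and 233 in sham, 380, 442 and 472 in untrained, and 289, 619 and 931 in SBES libraries. A single gene, C1qa, gave 426 of that sum in SBES 2 and 686 in SBES 3. SBES 1 had the lowest Kcnk13 level (1.36) and the lowest marker sum of the injured libraries. Against sham, 5 of the 8 markers were higher in SBES and 3 lower (Cx3cr1, P2ry12 and Aif1), with none called. The oligodendrocyte markers were lower for 8 of 10 genes in SBES against sham, with 1 called (Ugt8a, log2 fold change -2.33, edgeR adjusted p = 0.0149). The part of these cells in the Kcnk13 value was not tested.

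Of the other channel genes that the rule names in this comparison, none was called. Kcnj16 had a mean of 8.58 ± 1.55 (SD, n = 3) in sham and 5.15 ± 0.574 in SBES libraries, a log2 fold change of -0.73 (SE 0.22, edgeR adjusted p = 0.225). Kcnip3 had a log2 fold change of -0.82 (SE 0.31, edgeR adjusted p = 0.406) and Kcnk4 one of -0.57 (SE 0.28, edgeR adjusted p = 0.576). On the higher side Kcna1 had 0.48 (SE 0.22, edgeR adjusted p = 0.542). Kcnk3 had 0.79 (SE 0.39, edgeR adjusted p = 0.570), which was 0.05 without the 3 libraries numbered 1. Beside the glial gene Kcnj16, 4 of the 8 astrocyte markers were lower in SBES than in sham and 4 higher, with none called. The largest log2 fold change was -0.67 among the lower ones (Aqp4, the astrocyte water channel, edgeR adjusted p = 0.532). Among the higher ones it was 0.69 (Slc1a3, edgeR adjusted p = 0.445). The other lower ones ran from -0.16 to -0.01. The part of astrocytes in the Kcnj16 value was not tested.

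The partner genes of the channels gave a like picture. The list of 39 holds juxtaparanode and initial-segment scaffolds, Kv4 and other pore partners, subunits of the large-conductance channel, sulfonylurea receptors, calmodulins, the sodium-potassium pump and glial buffering genes. Of the 38 tested, 0 were called in each comparison. In untrained against sham 26 were lower and 12 higher (median log2 fold change -0.16), and 3 lower ones had an unadjusted p under 0.05 (of all genes tested, 49.1% were positive and 2.27% lower at that p). In SBES against untrained 26 were higher and 12 lower (median 0.18), with 3 higher ones at that p, beside 51.7% and 3.7% of all genes tested. In SBES against sham the split was 20 higher and 18 lower (median 0.01). These splits depended on the scaling: with total counts, 25 were higher and 13 lower in the first comparison (median 0.04, 0 at that p), and 18 higher and 20 lower in the second (median -0.07, 1 higher and 2 lower at that p). Lgi3, which binds the Kv1 complex through ADAM22-family proteins, measured 91.6, 77.4 and 93.0 in sham, 48.6, 59.2 and 69.0 in untrained, and 81.1, 76.7 and 104 in SBES libraries. The untrained libraries were the 3 lowest for Lgi3.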

How the data were processed

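The authors deposited 1 table with whole-number counts and FPKM for each library. Per the labels' protocols, reads were aligned with Hisat2 2.0.1 and counted with HTSeq 0.6.1, and the submitters' processing notes name mm10. Annotation release and strand setting: not given in the sources used here. Deposited FPKM could be recomputed from the counts and exonic lengths within 0.006 for 100% of values. Tests used the counts in edgeR 4.0.16 (R 4.3.3): filterByExpr, TMM scaling, 1 quasi-likelihood fit of all 9 libraries and Benjamini-Hochberg adjustment over 15893 genes. The script was tested on simulated data. Alternatives included DESeq2 1.42.0. PCR copies and separate molecules look alike in these counts.

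Named with a test are the 6 channel genes of smallest unadjusted p in each comparison with a mean of at least 1 TMM-scaled FPKM in the higher group; named with levels are the 3 most abundant of each subfamily and a textbook set. The channel genes and lists were chosen with earlier results of these data known. Some named genes and sequences are left out of the text. The coding-sequence search was chosen after the design, because no protein table was used here.

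Whether replicate numbers pair libraries was checked by correlating deviations from group means. For SBES and sham same-numbered libraries correlated at 0.27, 0.16 and 0.14, all above the limit of 0.1, so the blocked value is given there. Only 4 of these 6 libraries correlated best with their own number, as many as for SBES and untrained, where no pairing was taken. The number in the SBES group also stands for the frequency. With that block 132 genes were called over all genes tested, against 55 without it.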

Additional observations from a re-analysis of the deposited data

How the results depend on the processing

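The 18 fold changes belong to channel genes named for a small p in these same data, so few changes of sign could be expected. They were recomputed under 13 alternatives each. Of these 234 values, 0 reversed, although Kcnk3 in SBES against sham fell from 0.79 to 0.05 without the 3 libraries numbered 1. By the threshold, 229 values stayed on the same side, whatever their change in size. The other 5 became called, 4 of them for Kcnk13 in SBES against sham, with DESeq2 (-1.43), no filter (-1.42), the replicate block (-1.49) and without the 3 libraries numbered 1 (-1.30). The count of called channel genes in SBES against sham was accordingly 1 under each of these settings. In SBES against untrained it was 1 without the filter, and it was 0 under all other settings run. Over all genes tested, the count for untrained against sham was 0 and became 18 with DESeq2, 1 with total-count scaling, 134 without the filter, 4 with the replicate block and 47 without the 3 libraries numbered 1. For SBES against untrained it was 0 and became 30 with DESeq2, 186 without the filter and 13 without the libraries numbered 1, and it ran from 0 to 1 when single libraries were left out. For SBES against sham it was 55 and became 300 with DESeq2, 517 without the filter, 132 with the replicate block and 581 without the libraries numbered 1. Leaving out single libraries gave 0 (without sham 3) to 86 (without SBES 1) there, with 29 without sham 1, 6 without sham 2 and 4 without SBES 3. The cause of these shifts was not tested. The replicate block changed no other call of a channel gene. Same-numbered libraries correlated at 0.39, 0.0011 and 0.22 for untrained and sham, and at 0.24, -0.17 and 0.26 for SBES and untrained, which are not all above 0.1, so the number was not taken to pair libraries there. Of 6 libraries, 2 correlated best with their own number for untrained and sham, and 4 for SBES and untrained, as for SBES and sham. With 3 libraries a group, channel genes under about 1 TMM-scaled FPKM rest on few counts, and a difference missed there is not shown to be absent.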

Other observations

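The 5 noncoding genes that match the symbol rule were low per length. The highest value of any was 1.17 TMM-scaled FPKM, for Kcnd3os in untrained 1, and 2 of the 5 passed the filter on low counts. Kcnq1ot1, the imprinted transcript antisense to Kcnq1, did not exceed 0.360 on that scale, over an exonic length of 93092 bases. It had 77 to 301 counts in each library, with overlapping groups.

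Channel genes that neighbour each other differed in level. Kcnj16 and Kcnj2 lie 38.2 kb apart on chromosome 11, with means of 6.98 and 0.125 over the 9 libraries. Kcnj9 and Kcnj10 lie 11.9 kb apart on chromosome 1, with means of 1.66 and 13.8. On chromosome 3 Kcna2 had a mean of 5.19, between Kcna3 at 0.754 and Kcna10 at 0.0032.

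Libraries differed in how often they held the extreme value of a channel gene. Of the 39 genes with a mean of at least 1, untrained 1 held the lowest value for 14 and untrained 2 for 10. SBES 1 held the highest value for 9 and sham 2 for 8. The median coefficient of variation over the 9 libraries was 28.3%.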
